A study of Saccharomyces cerevisiae with 30 samples.

Results

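FLO8, MSS11, MFG1 (YDL233W) and MIT1 (YEL007W) encode 4 regulators of filamentous growth in the yeast Saccharomyces cerevisiae. They were picked by symbol or systematic name, all 4 were found among the 6932 features of the deposited expression table, and all 4 were among the 6445 genes that could be tested for insertions. The data were calling card libraries of 28 transcription factors, 1 library per factor, and 2 polyA RNA libraries, 1 of rich and 1 of nitrogen-starved medium. In a calling card library the factor carries a part of Sir4, a protein that Ty5 retrotransposons use as a landmark, and each new insertion therefore records a place close to the bound factor. The strain was Σ1278b, which grows as filaments when nitrogen is scarce. All 28 calling card libraries came from synthetic medium low in ammonium with transposition induced in 2% galactose, and they differed by the fused factor alone, as far as the labels say. The factors were Flo8, Mss11, Mfg1, Mit1, Sok2, Ste12, Tec1, Nrg1, Sfl1, Phd1, Mga1, Rim101, Rlm1, Rtg1, Skn7, Smp1, Fkh1, Dig1, Gln3, Hms1, Msn1, Hot1, Hms2, Yap6, Msn2, Msn4, Gcn4 and Rgm1. No library of unfused Sir4 was analysed here. The RNA libraries carry the calling card growth and treatment text in their labels, so their culture is known only as rich or nitrogen-starved medium.

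Flo8, Mss11 and Mfg1 form a complex on DNA that turns on FLO11, the gene of the cell-surface adhesin needed for filaments and biofilms. Flo8 is the member on which the cAMP and protein kinase A pathway acts, and Mss11 and Mfg1 are its partners. Mit1 belongs to the WOPR family of DNA-binding proteins, whose best-known member is Wor1, the switch of white and opaque cells in Candida albicans. Genes of such regulators can themselves be targets of other filamentation factors. The laboratory strain S288C carries a nonsense mutation in FLO8, and the RefSeq R64 table lists its FLO8 as a pseudogene, whereas Σ1278b is known for an intact copy.

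The 28 libraries held 401017 insertions, from 2836 (Rtg1) to 41619 (Phd1), with a median of 12128.5. Insertions were counted over 1200 bp before each start codon and are given as counts and per 1000 insertions of the library. A factor was called enriched at a gene when its share exceeded that of the 27 other libraries pooled at a Benjamini-Hochberg adjusted p at or under 0.05 (Fisher's exact test, one-sided, adjusted over all genes and libraries). With 1 library per factor such a p compares libraries and not conditions, and the exact 95% intervals cover counting error only. Over all tested genes and libraries 0.996% of pairs were called in this way, and 0.879% of the p-values in the authors' deposited table were 0.001 or less. Of the 112 pairs of a library with 1 of the 4 genes, 7 (6.25%) were called by Fisher's exact test and 11 (9.82%) had such a deposited p-value. These called pairs lay at FLO8, MSS11 and MIT1, apart from 1 Fisher call at MFG1. Of the 16 pairs of the Flo8, Mss11, Mfg1 and Mit1 libraries with the 4 genes, 1 was called by Fisher's exact test, Mit1 at its own gene, and 2 had such a deposited p-value, Mit1 at MIT1 and Flo8 at FLO8.

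**Figure D1:**
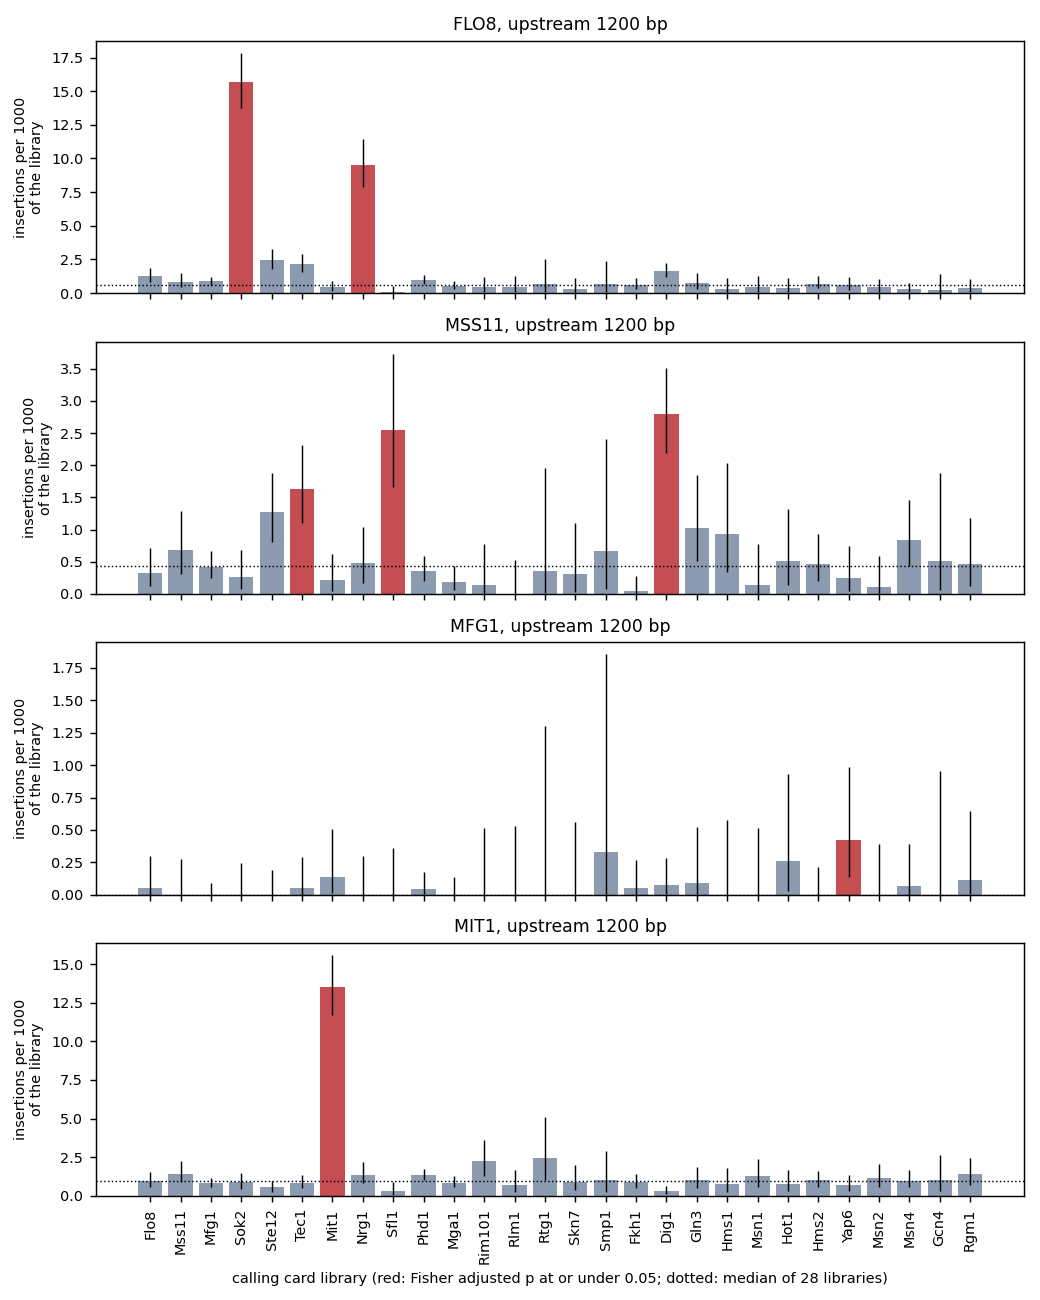
Insertion rates over 1200 bp before the start codon of FLO8, MSS11, MFG1 and MIT1 per 1000 insertions of each library, for 28 calling card libraries with exact 95% intervals of the count. Red bars passed Fisher's exact test with Benjamini-Hochberg adjustment and dotted lines mark the median library. Sok2 and Nrg1 stand out at FLO8, Dig1, Sfl1 and Tec1 at MSS11, and Mit1 at its own gene, while at MFG1 16 libraries held 0.

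The stretch upstream of FLO8, the gene of the DNA-bound subunit, was among the most heavily hit in the genome and was dominated by 2 repressors. FLO8 (YER109C) lies on the minus strand of chromosome 5 at 390163–392562 in the coordinates of the deposited expression table, and its window is 392563–393762. Over all libraries the window held 686 insertions, against a median of 30 per gene, and 98.7% of tested genes held no more. Every library had at least 1. Rates ran from 0.0981 per 1000 (1 insertion, Sfl1) over a median of 0.614 to 15.7 (Sok2). Sok2, a repressor of filamentation downstream of protein kinase A, placed 235 insertions (95% interval 206 to 267) and Nrg1, a glucose-linked repressor of FLO11, placed 119 (98.6 to 142). Both libraries stand far above the rest, at 15.7 and 9.55 per 1000, and no interval of another library reached them.

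Relative to the other libraries pooled, the odds of an insertion upstream of FLO8 were 13.7-fold higher for Sok2 (95% interval 11.6 to 16.0, adjusted p = 2.9e-151) and 6.60-fold higher for Nrg1 (5.36 to 8.06, adjusted p = 4.77e-49; Fisher's exact test). The insertions were spread over 153 and 90 distinct positions, so neither excess came from a single site. They were also well supported, with a median of 47 reads each in the Sok2 library against 6 over that library as a whole, and 30 against 6 in the Nrg1 library. Sok2 insertions were densest from 400 to 600 bp upstream, where 140 of them (59.6%) lay. Nrg1 insertions were densest from 200 to 400 bp, with 65 (54.6%) there. The median distance to the start codon was 471 bp for Sok2 and 381 bp for Nrg1. Among all genes, FLO8 ranked 13th by insertions in the Sok2 library and 5th in the Nrg1 library.

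The mating and filamentation factor Ste12 and its partner Tec1 came next at FLO8. Ste12 placed 46 insertions (2.43 per 1000, 1.78 to 3.24) and Tec1 41 (2.16 per 1000). Dig1, which binds and restrains Ste12, placed 42 (1.63 per 1000). Against the other libraries pooled, a reference that Sok2 and Nrg1 raise at this gene, the adjusted p was 0.364 for Ste12, 0.921 for Tec1 and 1 for Dig1 (Fisher's exact test). Another comparison used a trimmed mean of the libraries, with the 5 highest and the 5 lowest left out, and called 2.82% of all pairs. Its exact Poisson probabilities gave adjusted p = 1.4e-11, 9.8e-09 and 1.21e-05 for these 3 factors. The 5 highest left out at FLO8 were Sok2, Nrg1, Ste12, Tec1 and Dig1. The tested libraries were thus removed from the reference for their own high rates, and these p-values are no independent support. The authors' deposited table gives p-values of 1.78e-15 for Ste12, 7.47e-13 for Tec1 and 8.74e-10 for Dig1. These 3 calls thus depend on what the libraries are set against, and that of Ste12 also on whether each position is counted once. Phd1, an activator of filamentation related to Sok2, placed 40 insertions (0.961 per 1000) with an odds ratio of 0.534, and its deposited p-value at FLO8 was 0.000285.

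The libraries of the complex itself and of Mit1 were far below Sok2 and Nrg1 at FLO8, and 3 of these 4 were above the median library. The Flo8 library held 23 insertions (1.24 per 1000, 0.789 to 1.87), the Mfg1 library 36 (0.884), the Mss11 library 11 (0.831) and the Mit1 library 6 (0.421). None passed Fisher's exact test, and the odds ratio of Flo8 was 0.717 (adjusted p = 1, Benjamini-Hochberg). The authors' deposited table gives Flo8 at its own gene a p-value of 0.000394, with 0.00226 for Mfg1, 0.146 for Mss11 and 0.818 for Mit1. Most of these insertions were at positions that the Sok2 library also held. That was so for 17 of 22 positions of Flo8 (77.3%, against 20.1% over the rest of its library), 28 of 33 of Mfg1 (84.8% against 17.2%), 9 of 11 of Mss11 and 6 of 6 of Mit1. The Sok2 library was chosen for its highest rate in this window, so a larger shared part here than elsewhere is partly set by that choice. The shared positions of Flo8 had a median of 1 read in the Flo8 library and 792 in the Sok2 library.

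Leaving out every position with at least 10 times more reads in another library reduced Flo8 to 3 insertions upstream of FLO8 (0.235 per 1000), Mss11 to 2 and Mfg1 to 5 (0.147 per 1000). The same filter left 212 for Sok2 (20.1 per 1000), 100 for Nrg1 (11.0), 26 for Ste12 (1.98), 20 for Tec1 (1.46) and 34 for Dig1 (1.44). Over whole libraries it kept 12784 of 18487 insertions for Flo8, 9646 of 13241 for Mss11 and 34021 of 40727 for Mfg1. It kept 10523 of 14955 for Sok2 and 13678 of 19007 for Tec1. By its rule the filter spares the library with the most reads at a position. Of the other libraries, Nrg1 shared 38 of 90 positions with Sok2 (42.2% against 16.4%), Dig1 13 of 36 (36.1% against 3.24%), Tec1 20 of 38 (52.6% against 12.3%) and Phd1 22 of 39 (56.4% against 2.99%). Why libraries held the same positions was not tested.

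**Figure D2:**
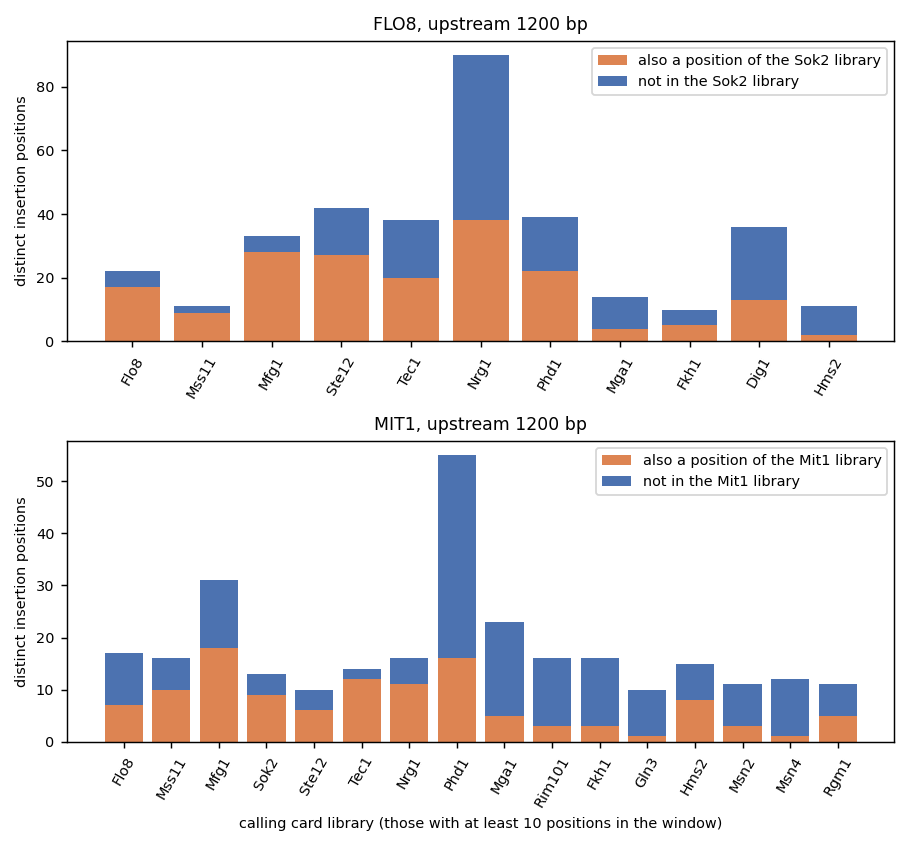
Distinct insertion positions upstream of FLO8 and of MIT1 in each library with at least 10 of them, split by whether the Sok2 library (FLO8) or the Mit1 library (MIT1) holds the same position. At FLO8, 28 of 33 Mfg1 positions and 17 of 22 Flo8 positions were also in the Sok2 library, against 38 of 90 for Nrg1.

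By Fisher's exact test MSS11, the gene of Flo8's partner, was marked by other factors than FLO8, with fewer insertions over all libraries. Dig1 and Tec1, both called here, also had deposited p-values at or under 0.001 at FLO8. They passed there against the trimmed mean, whose reference left both of them out. MSS11 (YMR164C) lies on the minus strand of chromosome 13 at 592001–594214, with its window at 594215–595414. The window held 277 insertions (96.4% of genes held no more) in 27 of 28 libraries, with 0 in the Rlm1 library. The median library had 0.440 per 1000. Dig1 was highest with 72 insertions (2.79 per 1000, 2.19 to 3.52), followed by Sfl1, a repressor of FLO11 that competes with Flo8, with 26 (2.55 per 1000, 1.67 to 3.74), and by Tec1 with 31 (1.63 per 1000, 1.11 to 2.32). These 3 intervals overlap one another, and the differences among Dig1, Sfl1 and Tec1 were not tested.

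The odds of an insertion upstream of MSS11 were 5.12-fold higher in the Dig1 library (3.86 to 6.74, adjusted p = 5.17e-22), 3.98-fold in the Sfl1 library (adjusted p = 4.68e-06) and 2.54-fold in the Tec1 library (adjusted p = 0.00197), each against the other libraries pooled (Fisher's exact test). The authors' deposited table calls the same 3 factors, with p-values of 9.99e-16, 2.65e-07 and 4.73e-05. Ste12 placed 24 insertions (1.27 per 1000) and did not pass (adjusted p = 0.181, Fisher's exact test), with a deposited p-value of 0.00768. It did pass with each position counted once (adjusted p = 0.0294, Fisher's exact test) and against the trimmed mean (adjusted p = 0.0014, exact Poisson). At MSS11 too, that mean left Ste12 out of its reference as 1 of the 5 highest libraries. Sok2, the leading factor at FLO8, placed 4 insertions here (0.267 per 1000). Neither the complex nor Mit1 passed at MSS11: Mss11 placed 9 insertions at its own gene (0.680 per 1000), Mfg1 17 (0.417), Flo8 6 (0.325) and Mit1 3 (0.210).

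At MSS11 the parts shared with the leading library, Dig1, rested on few positions, and their differences from the rest of the genome were not tested. As at FLO8, the leading library was chosen by its rate in the window. Of 29 Tec1 positions, 6 were also in the Dig1 library (20.7%, against 26.6% over the rest of the Tec1 library), and of 24 Ste12 positions 3 were (12.5% against 26.9%). Sfl1 shared 6 of 26 (23.1% against 3.25%). The median insertion had 50 reads in the Dig1 library, 76 in the Sfl1 library and 21 in the Tec1 library, against 27, 46 and 7 over each whole library.

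The insertions upstream of MSS11 reached into the neighbouring gene. PAH1 (YMR165C), which encodes the phosphatidate phosphatase of lipid synthesis, ends 489 bp upstream of the MSS11 start, so that 711 bp of the window lie in its reading frame. Of the 277 insertions 134 (48.4%) were inside PAH1. They were all but 2 of the 136 insertions in the whole 2589 bp frame, which places them at the end of PAH1 that faces MSS11. Dig1 had 37 of 72 insertions there, Tec1 16 of 31, Ste12 13 of 24 and Sfl1 7 of 26. Sfl1 was densest from 200 to 400 bp. The 6 insertions of Hms1, a helix-loop-helix factor, were all in PAH1. With the window ended at PAH1, Dig1 and Sfl1 were still called and Tec1, with 15 insertions and an odds ratio of 2.36, was not (adjusted p = 0.228, Fisher's exact test).

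**Figure D3:**
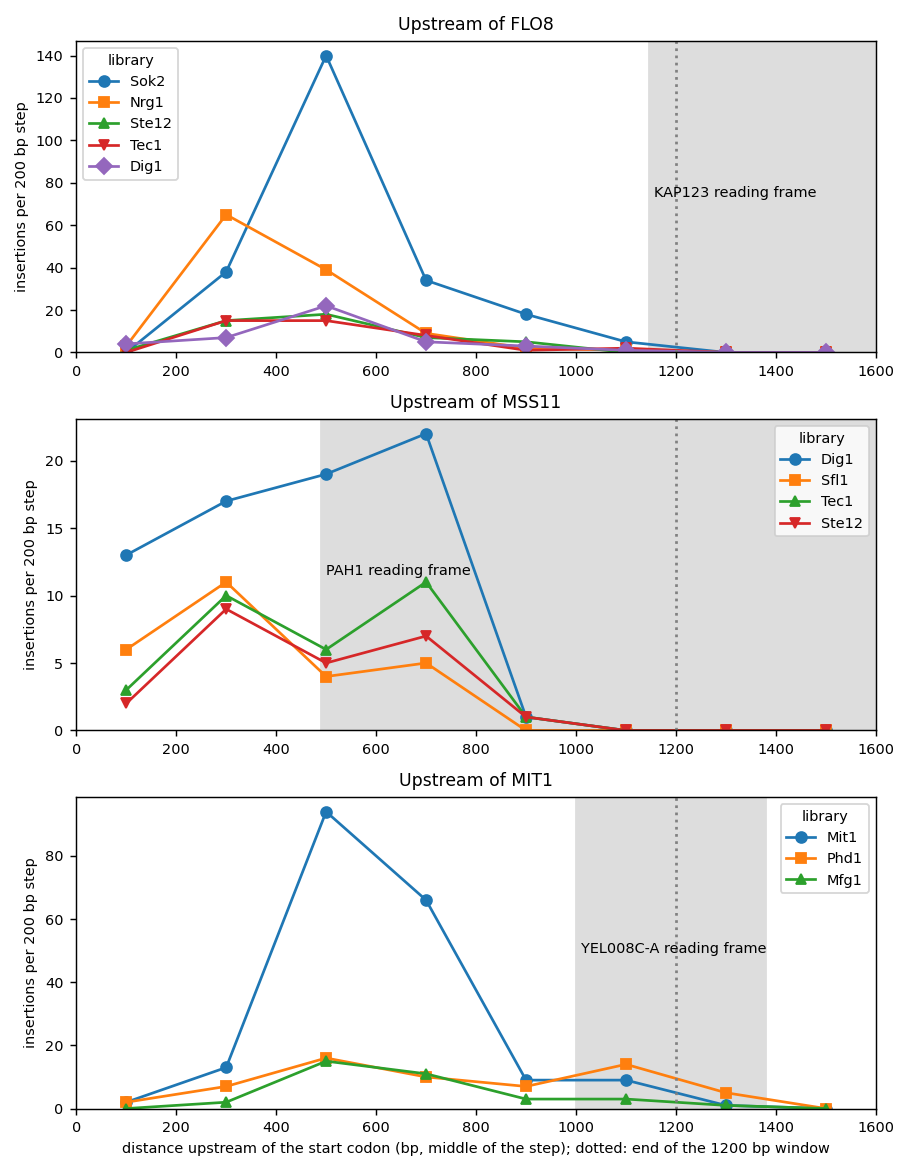
Insertions per 200 bp step against the distance upstream of the start codon of FLO8, MSS11 and MIT1, for the libraries with the most insertions there or discussed in the text. Grey marks the reading frame of the next gene or, at MIT1, the small feature YEL008C-A. Sok2 peaks at 400 to 600 bp and Nrg1 at 200 to 400 bp at FLO8, Mit1 peaks at 400 to 600 bp at MIT1, and the insertions at MSS11 run on into PAH1.

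MFG1, the gene of the third subunit, held the fewest insertions of the 4 genes. MFG1 (YDL233W) lies on the plus strand of chromosome 4 at 23886–25262, with its window at 22686–23885. The window held 20 insertions from 12 libraries, fewer than the median gene, and 32.8% of genes held no more. The median library had 0. Only 319 bp separate MFG1 from GYP7 (YDL234C), a divergent gene for a GTPase-activating protein of vacuolar traffic. These 319 bp are upstream of both genes, so the insertions there count for both. The remaining 881 bp of the window lie inside GYP7 and held 7 of the 20 insertions. Most insertions were close to the start codon, with 13 of 20 (65.0%) in the first 200 bp, against 16 of 686 (2.33%) at FLO8.

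Yap6, a stress-linked leucine zipper factor, placed 5 insertions upstream of MFG1 (1.62 to 11.7; 0.424 per 1000), the highest rate of the 28 libraries. Its odds ratio was 11.0 (3.13 to 31.9, adjusted p = 0.028, Fisher's exact test), but the authors' deposited table gives 0.0938, and the call was lost under 10 alternatives described in the closing section. No deposited p-value at MFG1 was at or under 0.001. The Flo8 library had 1 insertion and the Mit1 library 2, both at 1 position. The Mss11 and Mfg1 libraries had 0, and a count of 0 in the 40727 insertions of the Mfg1 library allows a rate of up to 0.0737 per 1000. That limit is below the rate of Mfg1 at the other 3 genes.

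At MIT1 the gene's own product was the 1 factor called by Fisher's exact test, which was not so at the genes of the complex. MIT1 (YEL007W) lies on the plus strand of chromosome 5 at 156792–158798, with its window at 155592–156791. The window held 562 insertions (98.4% of genes held no more), with at least 1 in every library. Rates ran from 0.294 per 1000 (Sfl1) over a median of 0.975 to 13.5 (Mit1). The Mit1 library placed 193 insertions (167 to 222; 11.7 to 15.6 per 1000), and the next highest rates were 2.47 in the Rtg1 library, with 7 insertions, and 2.23 in the Rim101 library, with 16 (1.27 to 3.62). The interval of Mit1 lay above that of every other library.

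The odds of an insertion upstream of MIT1 were 14.4-fold higher in the Mit1 library (12.0 to 17.2, adjusted p = 6.22e-128, Fisher's exact test), and the authors' deposited table gives 1.55e-15. The insertions lay at 137 distinct positions with a median of 21 reads, against 8 over the library. A total of 173 (89.6%) lay from 200 to 800 bp upstream, with 94 (48.7%) from 400 to 600 bp. MIT1 ranked 11th among all genes of the Mit1 library. Rim101, a zinc finger factor of the response to alkaline pH, did not pass at MIT1 (odds ratio 1.61, adjusted p = 0.744, Fisher's exact test; deposited p-value 0.00365), although MIT1 ranked 3rd by insertions in that library.

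The Flo8 complex was around the median library at MIT1. Mss11 placed 19 insertions (1.43 per 1000), Flo8 18 (0.974) and Mfg1 34 (0.835), with p-values of 0.0567, 0.461 and 0.701 in the authors' deposited table. Phd1 placed 56 (1.35 per 1000). Positions shared with the Mit1 library made up 7 of 17 for Flo8 (41.2%, against 11.6% over the rest of the library), 10 of 16 for Mss11 (62.5% against 9.67%) and 18 of 31 for Mfg1 (58.1% against 9.68%). The Mit1 library was chosen for its highest rate in this window, which partly sets the larger shared part here. For Tec1, 12 of 14 positions were shared, and all 12 had at least 10 times more reads in the Mit1 library. Leaving out positions that were 10 times richer elsewhere kept 183 insertions for Mit1 (16.1 per 1000), 21 for Mfg1, 11 for Flo8, 7 for Mss11 and 1 of 16 for Tec1. Over whole libraries the filter kept 11391 of 14259 insertions for Mit1, 34021 of 40727 for Mfg1 and 12784 of 18487 for Flo8. It kept 9646 of 13241 for Mss11 and 13678 of 19007 for Tec1.

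The nearest annotated feature upstream of MIT1 is YEL008C-A, 999 bp away, whose coordinates the deposited table merges with those of YEL008W. The 201 bp of the window inside it held 76 of the 562 insertions (13.5%). YEL008C-A shares 999 bp of upstream sequence with MIT1, so the same insertions count for both, and the authors' deposited table gives it 1.33e-15 for Mit1. GCN4, the activator of amino acid synthesis genes, shares 272 bp of its window with that of MIT1 and had a deposited p-value of 0.0883 for Mit1.

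The insertions were denser before the start codon than in the reading frame at all 4 genes. The reading frame of FLO8 held 15 insertions over all libraries (6.25 per kb) against 572 per kb in its window, and MIT1 held 12 (5.98 per kb) against 468 per kb. MSS11 held 28 (12.6 per kb) against 231 per kb. At MFG1 the contrast was smaller, with 12 insertions in the frame (8.71 per kb) and 16.7 per kb in the window. At FLO8 597 of 686 insertions (87.0%) fell from 200 to 800 bp upstream, and only 8 were found from 1200 to 3000 bp. The same distant stretch held 2 insertions at MSS11, 30 at MFG1 and 38 at MIT1.

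The expression of the 4 genes was compared between rich and nitrogen-starved medium, with 1 library each and hence no test. MIT1 had 89.2 RPKM in rich and 106 in starved medium, a change of 0.25 in log2((starved + 1)/(rich + 1)). FLO8 had 34.4 and 31.4 RPKM (−0.13), MFG1 21.9 and 31.3 (0.49), and MSS11 17.8 and 29.1 (0.68). MIT1 was the highest of the 4 in both media. FLO8 was above MFG1 and MSS11 in rich medium, and these 3 lay within 29.1 to 31.4 RPKM in starved medium. None of the 4 passed a change of 1, whereas 10.8% of 6122 features with at least 5 RPKM passed upward and 4.05% downward. The median change of the 4 was 0.37, against 0.01 over all these features. The labels do not say whether the cultures mixed cell types. If they did, fewer cells of a type and less RNA per cell cannot be told apart.

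Setting both libraries to the same median shifts starved RPKM by −0.13 on the log2 scale, and with the pseudocount the change of low genes moves less. The 4 genes then stand at 0.12 (MIT1), −0.26 (FLO8), 0.37 (MFG1) and 0.55 (MSS11). No sign changed. Over all features, 551 instead of 659 were then higher and 319 instead of 248 lower. The levels of FLO8, MFG1 and MSS11 were below the median feature in both media (48.9 RPKM in rich and 53.6 in starved medium), and that of MIT1 was above it. FLO8 stood at the 38.1 and 32.0 percentiles and MIT1 at the 67.1 and 69.6 percentiles.

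Genes around the 4 regulators were then read in the Flo8, Mss11, Mfg1 and Mit1 libraries. The gene lists were chosen with earlier results of these data known, so their shares against all genes are descriptions and no independent support. Over all tested genes Fisher's exact test called 0.822% in the Flo8 library, 0.776% in the Mss11 library, 2.09% in the Mfg1 library and 0.822% in the Mit1 library. Among 5 adhesin genes, the Mit1 library called all 5: FLO11 with 505 insertions (35.4 per 1000), FLO1 with 363 (25.5), FLO5 with 73 (5.12), FLO9 with 52 (3.65) and FLO10 with 31 (2.17). The Flo8, Mss11 and Mfg1 libraries called 0 of them. At FLO11 they held 20 (1.08 per 1000), 9 (0.680) and 43 (1.06) insertions, against a pooled reference that the Mit1 library raises. Only 1200 bp before FLO11 were counted, so the missing calls do not show that the complex is absent there. With the window ended at the nearest feature, 7 Mit1 insertions were left before FLO11 and the call there was lost (adjusted p = 0.145, Fisher's exact test). FLO11 had 161 RPKM in rich and 54.9 in starved medium, a change of −1.54, and was the only 1 of the 3 adhesin genes with at least 5 RPKM to pass the fold. FLO1, FLO5 and FLO9 are near-identical copies, so reads and insertions at them may be split among copies.

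Of 13 genes of the cAMP and protein kinase A pathway, which acts on Flo8, 1 was called in at least 1 of the 4 libraries, against 2.93% of all tested genes. RAS2, which encodes the GTPase that activates adenylate cyclase, had 31 insertions in the Mss11 library (2.34 per 1000, adjusted p = 2.09e-05) and 71 in the Mfg1 library (1.74 per 1000, adjusted p = 2.83e-08; Fisher's exact test). The Flo8 library had 19 there (1.03 per 1000, adjusted p = 1, Fisher's exact test). Both RAS2 calls were lost with the window ended at the nearest feature, which kept 3 Mss11 and 7 Mfg1 insertions. None of the 13 passed the fold in RPKM, and their median change was −0.03.

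Of 20 other factors and cofactors of filamentation, a list chosen with earlier results known, 8 were called in at least 1 of the 4 libraries. The share over all genes was the same 2.93%. Flo8 called 5 (SOK2, PHD1, NRG1, HMS1 and CIN5), Mfg1 the same 5 and NRG2, and Mss11 called HMS1 and CIN5. The rates were highest at CIN5, a leucine zipper factor gene, with 71.0 per 1000 for Flo8, 49.4 for Mss11 and 42.6 for Mfg1. HMS1 came next, with 24.7, 14.1 and 16.9. TEC1 was called in none of the 4 libraries, with 10.1 per 1000 for Flo8, 8.38 for Mss11, 7.49 for Mfg1 and 11.4 for Mit1. The called rates at SOK2 were lower, 5.90 for Flo8 and 5.30 for Mfg1. A call compares a library with the others pooled, so a missing call does not show a low rate. The calls at SOK2 were weak and turned with the processing: the odds ratios of 1.46 for Flo8 and 1.33 for Mfg1 became 0.361 and 0.558 once positions with at least 10 times more reads in another library were left out. That filter also ended the calls of Flo8 at NRG1 (odds ratio 1.80, then 1.59) and PHD1 (1.98, then 1.38), while Mfg1 at both genes and all 3 libraries at CIN5 and HMS1 were still called. Mit1 called 2, MGA1, a heat shock factor-like gene, with 114 insertions (7.99 per 1000, adjusted p = 1.55e-11, Fisher's exact test) and YAP6 with 623 (43.7 per 1000). The same filter ended the call at MGA1 (odds ratio 2.27, then 1.56). The Mit1 library also called YHR177W, the other WOPR gene of yeast, with 47 (3.30 per 1000, adjusted p = 1.24e-28, Fisher's exact test).

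In RPKM, 4 of these 20 passed the fold upward and 1 downward, against 10.8% and 4.05% of all features: NRG1 went from 15.1 to 77.5 (2.29), PHD1 from 25.3 to 62.9 (1.28), HMS1 from 5.87 to 15.4 (1.26) and TEC1 from 104 to 235 (1.17). MGA1 went from 16.1 to 4.02 (−1.76). Their median change was 0.26. Of the 2 factors enriched at FLO8 1 had its own transcript past the fold, namely NRG1, while the log2 change of FLO8 was −0.13. YHR177W had 10.9 and 16.7 RPKM (0.58).

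**Figure D4:**
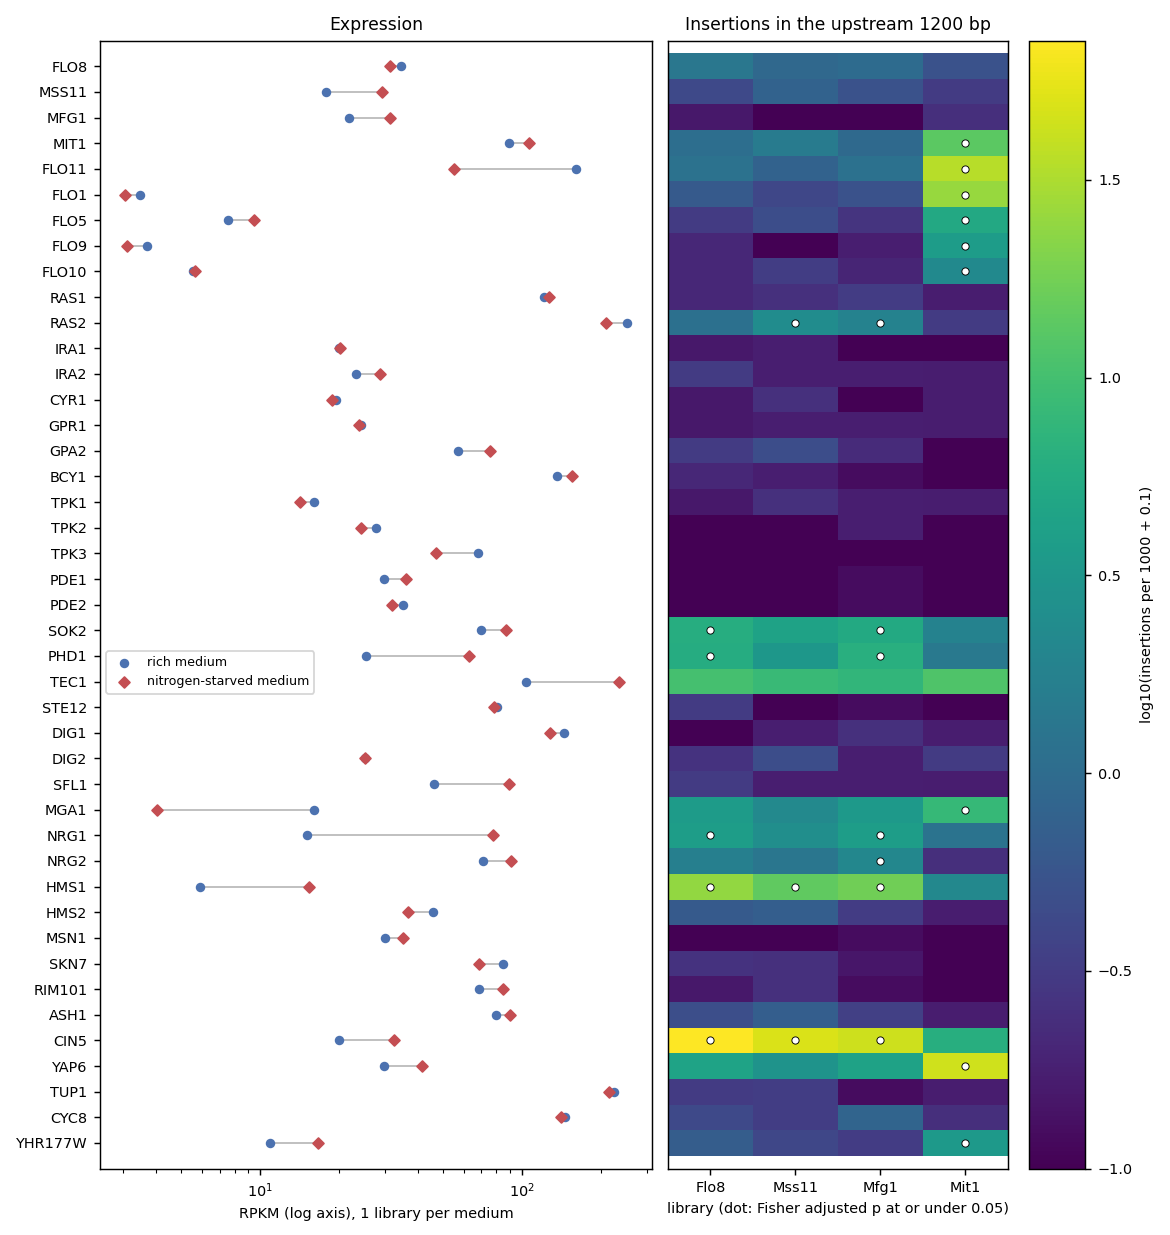
RPKM in rich and nitrogen-starved medium (log axis, left) and insertions per 1000 upstream of each gene in the Flo8, Mss11, Mfg1 and Mit1 libraries (log10 colour scale, right) for the 4 genes and 39 related genes. White dots mark pairs that passed Fisher's exact test. FLO8, MSS11, MFG1 and MIT1 move little between media, and the dots at the adhesin genes are in the Mit1 column alone.

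The genes whose rates over the 28 libraries were most like each of the 4 were sought by Pearson's r of log2(insertions per 10000 + 1), as a description, since the points share libraries and depth. FLO8 was most like SPO20 (r = 0.72), AQY1 (0.72) and SOK2 (0.71). SPO20, a sporulation gene, and SOK2 held 60.7 and 60.4 Sok2 insertions per 1000, and AQY1, a water channel gene, 15.4. SPO20 and SOK2 are divergent and share 503 bp of their windows, which hold 1375 of their 1637 and 1656 insertions, so they are 1 locus. MIT1 was most like YAP6 (0.71), IMA1 and MAL13 (0.71 each), of which the last pair serve sugar use and held 115 and 114 Mit1 insertions. IMA1 and MAL13 likewise share 1099 bp and 221 of their 223 and 228 insertions. MSS11 was most like BEM2 (0.61), a gene of cell polarity, KAP95 (0.59), a nuclear import gene, and BUD8 (0.59), a marker of the distal bud site. BEM2 held 157 Dig1 insertions (6.09 per 1000) and 45 Tec1 insertions. For MFG1 the 3 values were lower, 0.51 for GIS4, 0.48 for RNR2 and 0.48 for VOA1, and rest on 20 insertions. By Spearman's rho none of the 3 genes named for FLO8, and none of those for MIT1, stayed among the 3 most alike.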

How the data were processed

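The deposited insertion lists have no header and list chromosome, position and a whole number; the number was taken as the read count of the insertion. Per the labels' protocols, colony DNA was digested, self-ligated and amplified by inverse PCR from Ty5. The aligner, filters and genome build are not given in the sources used here, and coordinates, counted from 1, were taken from the deposited expression table. The authors' deposited table holds 1 p-value per gene and factor; its test, background and region are not stated. Expression is in RPKM computed by the authors, per the file headers; read counts could not be recovered from them, and the RNA libraries' depth is unknown. All columns were assigned. Symbols were taken from RefSeq (R64).

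Each listed line counted as 1 insertion, so lines at 1 position were treated as separate. Insertions in the 1200 bp before the start codon were compared with the rest of the library, each library against the 27 others pooled, by Fisher's exact test (one-sided, scipy 1.17.1, numpy 2.4.6, pandas 2.3.3), adjusted by Benjamini-Hochberg over 6445 genes and 28 libraries. The threshold was 0.05; deposited p-values were read at 0.001. Intervals are exact Poisson, or exact for odds ratios, at 95%, and a count of 0 allows up to 3. Expression change used a pseudocount of 1, which understates the change of low genes, among features with at least 5 RPKM in 1 medium. Scripts were tested on simulated data. The genes named are the 4 regulators, their neighbours, genes sharing their windows, the 3 most alike and 3 lists with YHR177W, of which those past a threshold are given. The regulators and lists were chosen with earlier results of these data known. Promoter sequences and motifs were not analysed here.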

Additional observations from a re-analysis of the deposited data

How the results depend on the processing

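The factors enriched at the 4 genes and the listed genes called in the Flo8, Mss11, Mfg1 and Mit1 libraries were recomputed under 18 alternatives (among them other windows, read minimums and thresholds, each position once, and positions richer, or 10 times richer, in another library left out), of which the window ended at the nearest feature, the 3000 bp window and the trimmed mean were chosen after seeing the data. Sok2 and Nrg1 at FLO8, Dig1 and Sfl1 at MSS11 and Mit1 at MIT1 were called under all 18, with odds ratios of 11.0 to 29.0, 5.59 to 9.19, 4.72 to 5.56, 3.60 to 5.88 and 13.0 to 22.5. At FLO8 the enriched factors went from 2 to 5 with the trimmed mean (Ste12, Tec1 and Dig1 added), whose reference left out these same 5 libraries. Ste12 also passed with each position counted once (odds ratio 1.96, adjusted p = 0.0146, Fisher's exact test). The odds ratio of Tec1 at FLO8 turned from 1.28 to 0.987 with 10 times richer positions left out, and that of Dig1 from 0.949 to 1.02 in 600 bp and 1.20 with each position once. Tec1 at MSS11 was lost in 600 bp (adjusted p = 0.126, Fisher's exact test), at an adjusted p of 0.001 and with the window ended at PAH1. The single factor at MFG1 became 0 with windows of 600, 800, 1500, 2000 and 3000 bp, at least 2 or 10 reads, all positions richer elsewhere left out, an adjusted p of 0.001 and the window ended at the nearest feature. Factors with a deposited p-value past the threshold at MIT1 went from 1 to 3 at 0.01, with Phd1 and Rim101 added. Of the 23 listed-gene calls 10 held under all 18. With the window ended at the nearest feature Mit1 at FLO11, Mss11 at CIN5, and Mss11 and Mfg1 at RAS2 were lost, and Flo8 and Mfg1 at PHD1 went to an odds ratio of 0 with 0 insertions. At SOK2 the odds ratio of Flo8 turned to 0.806 in 600 bp, 0.647 at 10 reads, 0.361 with 10 times richer and 0.305 with all richer positions left out; that of Mfg1 turned to 0.690 at 10 reads, 0.558 and 0.208 with these positions left out. Mit1 at MGA1 turned to 0.795 with all richer positions left out. Ste12 at MSS11 passed with each position once and with the trimmed mean. Of the 3 most alike genes, Spearman's rho kept 0 at FLO8, 1 at MFG1 and 0 at MIT1, and each position once kept 1 at FLO8. Over all genes the 1797 calls became 864 at an adjusted p of 0.001, 876 at 10 reads, 3219 in 3000 bp and 5090 with the trimmed mean. No paired analysis was possible because each group had 1 library, and no library could be left out of a group. At MFG1 the call rested on 5 insertions.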

Other observations

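Over all libraries the 600 bp downstream of FLO8 held 13 insertions, and the 600 bp downstream of MIT1 held 50. YEA6, a mitochondrial carrier gene that begins 434 bp after MIT1, had a deposited p-value of 0.0072 for Mit1 in the authors' deposited table. Upstream of MSS11, Msn4, a stress factor, placed 12 insertions with 8 in the first 200 bp. Gln3, the activator of nitrogen-use genes, placed 11 with 9 inside PAH1, and 8 of its 9 distinct positions were also held by the Dig1 library.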
